A study of Homo sapiens with 6 samples.

Results

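The HOX genes were described here in 2 human kidney cancer lines, 786-O and A-498, across 6 RNA-seq libraries. Members were the genes of the count table whose symbol is HOX, a cluster letter from A to D and a position number, with antisense and clone names left out. This gave 37 of the 32357 genes in the table: 11 in the HOXA cluster, 9 in HOXB, 8 in HOXC and 9 in HOXD. The human clusters hold 39 such genes. HOXB1 and HOXC12 have no row in the table and were not analysed here.

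HOX genes encode homeodomain transcription factors that give cells of the embryo their position along the body axis and the limb. Within a cluster the genes lie in the order of the body regions in which they are switched on, so that low position numbers mark anterior and high numbers posterior regions, and genes with the same number in different clusters are paralogues. The proteins bind DNA together with TALE homeodomain cofactors of the PBX, MEIS and PKNOX families, and adult cells often keep part of the pattern of the tissue they came from. In the developing kidney the group 11 paralogues act with PAX2 and EYA1 in the mesenchyme that forms the nephrons.

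Both lines are cultures of clear cell renal cell carcinoma in which the VHL tumour suppressor is lost. In each, cells carried a non-targeting short hairpin as control, ZNF395 hairpin 1 or ZNF395 hairpin 3, delivered by retrovirus and kept under puromycin, so every group shares the virus and the selection. There was 1 library per line and construct, with no repeat culture, no untransduced cells and no normal kidney. The comparison of the lines therefore set the 3 libraries of A-498 against the 3 of 786-O, and in the comparisons of the hairpins the 2 lines served as the replicates. The p-values measure the spread between these libraries only. A difference between the lines cannot be told apart from any other difference between these cultures, and in bulk RNA fewer cells with a transcript and less transcript per cell cannot be told apart.

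Library totals ran from 77534125 to 99147218 counts, of which the HOX genes took 34108 to 50996. On the CPM scale, which sets counts against the size of each library (here with TMM factors), the HOX genes together gave 477 CPM in the 786-O control library, 435 CPM under hairpin 1 there and 508 CPM under hairpin 3. The A-498 libraries gave 490, 464 and 521 CPM in the same order. ZNF395, the targeted zinc finger gene, was at 96.3, 24.7 and 13.5 CPM in 786-O and 67.9, 14.5 and 14.3 CPM in A-498, which left 14 to 25.6% of the control of the same line. Of 10 renal carcinoma markers, 8 reached 1 CPM in every library of each line. PAX8, the renal lineage factor, was at 157 to 256 CPM and PAX2 at 17.7 to 26.6 CPM, whereas CA9, a hypoxia target that marks this cancer, was at 0.0126 CPM or less in 786-O and at 0.399 to 1.68 CPM in A-498. Endothelial and immune markers, 8 each in the table, summed to 0.986 to 4.10 CPM in 786-O and to 2.52 to 5.53 CPM in A-498. The 8 fibroblast markers summed to 11.2 to 13.3 CPM in 786-O and to 25.6 to 46.4 CPM in A-498, where COL1A1, a collagen gene, reached 40.8 CPM. Of these markers CDH5, VWF, EMCN, PTPRC, MS4A1, LYZ, PDGFRA, COL1A2 and DCN had at most 10 counts in any library. Others were well above 0: TEK had 144 to 172 counts and ITGAM 191 to 483 counts in A-498, CSF1R had 69 to 262 counts and LUM 308 to 315 counts in 786-O, and ACTA2 had 228 to 711 counts over all 6 libraries. Their part in the HOX values was not tested.

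Per GENCODE v29, 25 of the 37 members share exonic bases with another gene, 18 of them on the same strand and 19 on the opposite strand. The libraries were made with a stranded kit, but the sources used here do not say whether counting was by strand. The share was 80.5% of the exonic bases of HOXD4 and 62.2% of those of HOXD3 with a same-strand transcript, 62.5% of HOXA7 and 39.3% of HOXA6 with HOXA-AS3, and 31.1% of HOXA11 with HOXA11-AS. It was 50.1% of HOXD1 with an opposite-strand transcript and 31% of HOXA4 with a same-strand one, and less than these with any other single gene for the rest. The counts of these genes are uncertain to that extent, as are those of HOXC4, HOXC5 and HOXC6, which share exons with each other.

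Most of the HOX code was transcribed in both lines. At least 1 CPM in all 3 libraries was reached by 28 members in 786-O and 30 in A-498. HOXB13, the prostate and hindgut gene, had 1 to 3 counts in each library, and HOXC5 had 0 to 9. HOXC11 and HOXD4 lay under 1 CPM in every library. In 786-O the silent end of the code also held HOXA7, HOXC13, HOXD12 and HOXD13, each with under 10 counts in every library. With a minimum of 2 CPM the count was 27 in each line.

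Levels were compared between genes as CPM per kilobase of the longest matched transcript, given as mean ± SD over the 3 libraries of a line. HOXA9, a gene of blood progenitors and leukaemia, came first in both lines, at 29.2 ± 6.69 CPM per kb in 786-O and 26.2 ± 4.59 CPM per kb in A-498. In 786-O it was followed by HOXB9 at 25.8 ± 13.6 CPM per kb, HOXA3 at 20.8 ± 2.63 CPM per kb and HOXB7 at 15.5 ± 2.57 CPM per kb. A-498 had HOXA5 at 21.6 ± 1.54 CPM per kb, HOXA10 at 19.8 ± 6.29 CPM per kb and HOXB7 at 16.9 ± 4.13 CPM per kb in these places. Only HOXA3 among these leading genes lay above the next gene in every library, in 786-O. Of the 36 steps in the order, 5 were clear of the spread in this sense in each line, so most neighbours in the order did not differ beyond it.

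On the mean over libraries, the HOXA cluster held the largest share of the HOX signal per kilobase, 41.7 ± 6.1% (SD, n = 3 libraries) in 786-O and 47.8 ± 5.4% in A-498. HOXB held 36.4 ± 5.3% and 32.2 ± 3.7%, HOXD 13.8 ± 0.957% and 13.2 ± 1.6%, and HOXC 8.20 ± 0.265% and 6.83 ± 0.618%. In 1 of the 6 libraries, hairpin 3 of 786-O, the order of these was turned, with 42.3% in HOXB and 34.7% in HOXA. By paralogue group, the group 9 genes led in both lines, with a sum of 63.4 ± 9.51 CPM per kb in 786-O and 46.3 ± 1.27 CPM per kb in A-498. Group 11 summed to 5.2 ± 0.676 CPM per kb in 786-O and 17.5 ± 3.60 CPM per kb in A-498, and group 13 to 0.379 ± 0.0433 and 4.92 ± 1.06 CPM per kb. The 3 libraries of 1 line did not overlap those of the other in these 3 group sums, nor in those of groups 1, 5, 6 and 12. Over all genes tested, 59.1% did not overlap either, so this does not set these groups apart.

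**Figure D1:**
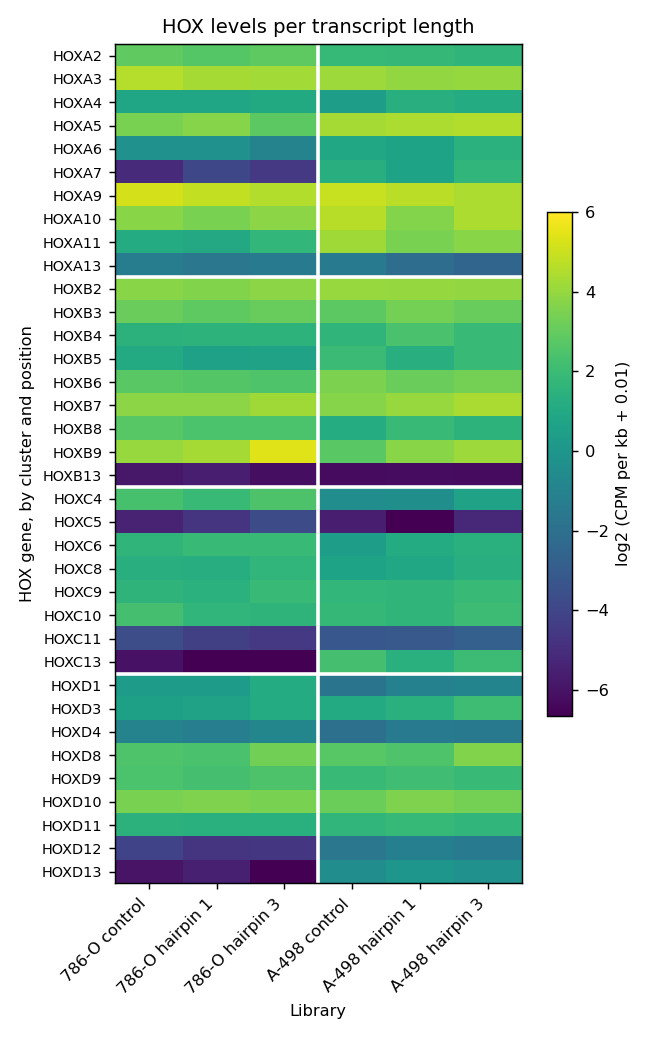
Heat map of HOX levels, as log2 of CPM per kilobase plus 0.01, with a row for each of 36 genes in cluster order and a column for each library, and white lines between clusters and lines. The dark cells of HOXA7, HOXC13, HOXD12 and HOXD13 in the 3 libraries of 786-O face lighter cells in A-498, while HOXB13 and HOXC5 are dark throughout.

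Within a line, pairs of libraries had nearly the same HOX profile, with Pearson r from 0.979 to 0.994 over the 37 genes on the log2 (CPM per kb + 0.01) scale. Pairs from different lines gave r from 0.697 to 0.779. The line means correlated with r 0.753 and Spearman's rho 0.808. Without HOXA7, HOXC13, HOXD12 and HOXD13, a set chosen after the values were seen, r was 0.935 over 33 genes. These are descriptions across genes that share libraries, and genes are not replicates.

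Between the lines, the code differed most at HOXC13, HOXD13, HOXA7 and HOXD12, which A-498 transcribed and 786-O had at or near 0 counts. HOXC13, the regulator of hair keratins, had 1, 0 and 0 counts in 786-O and 1166, 508 and 954 counts in A-498. HOXD13, the most posterior gene of its cluster, which shapes the digits, had 1, 2 and 0 counts in 786-O and 162, 176 and 180 counts in A-498. HOXA7, a trunk gene, had 3, 9 and 5 counts in 786-O and 502, 261 and 638 counts in A-498. No library of 786-O overlapped one of A-498 in any of the 3 genes. HOXD12, the neighbour of HOXD13, was at 0.0632, 0.0383 and 0.0400 CPM in 786-O and 0.411, 0.574 and 0.480 CPM in A-498, again with no overlap. Summed over a line and scaled for depth, the ratio of A-498 to 786-O was 2200 for HOXC13 (95% counting interval 394 to 86917, with 1 count in 786-O), 145 for HOXD13 (49.2 to 703, with 3 counts), 69.0 for HOXA7 (42.9 to 119, with 17 counts) and 10.2 for HOXD12 (5.52 to 20.9, with 11 counts). The intervals cover counting error only.

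For the test, 35 of the 37 members passed the filter on low counts, HOXB13 and HOXC5 having failed it, and HOXA7, HOXC13, HOXD12 and HOXD13 passed only through A-498, where they are high. These 4 had to differ once they passed, so they are described by their counts and ratios, with no p. By edgeR's quasi-likelihood test with Benjamini-Hochberg adjustment over all genes, 10 members were higher in A-498 and 7 higher in 786-O, 17 of 35 or 48.6%. Over all 20144 genes tested, 47.2% were called, 25.7% higher and 21.4% lower in A-498, so the HOX genes, these 4 included, were called about as often as genes in general. A difference of at least 4-fold was called for 6 of 35 members, 17.1%, against 19.2% of all genes, and the libraries of the lines did not overlap for 22 of 35, 62.9%, against 59.1%. The median log2 difference, A-498 minus 786-O, was 0.10 over the members and 0.02 over all genes. With the hairpin number as a replicate block, the calls were 13 higher and 10 lower, and 12460 of all genes were called. Without the control of 786-O, or without that of A-498, 7 members were higher and 3 lower in A-498. Over all genes tested, 5581 of 21237 and 5607 of 21138 were then called, so the calls of genes in general fell too.

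**Figure D2:**
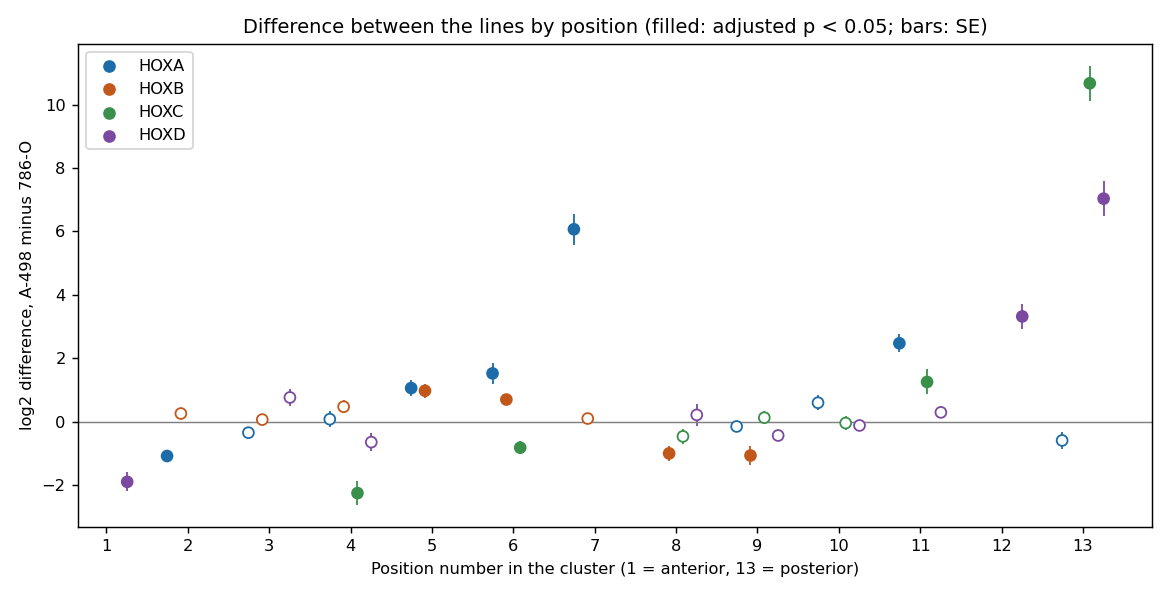
Log2 difference between the lines, A-498 minus 786-O, with its SE, against the position number of 34 tested HOX genes, coloured by cluster and filled where the edgeR adjusted p was under 0.05. HOXC13 at 10.67, HOXD13 at 7.03 and HOXA7 at 6.07 stand far above the other genes, which lie between -2.25 and 3.32. HOXA7, HOXC13, HOXD12 and HOXD13 passed the filter on low counts only through A-498, so their filled points and SE are no support for a difference.

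The sequences before the start sites are shown for HOXA7 and HOXD13, which differ between the lines as above, for HOXD10, a gene close to HOXD13 with like levels in both lines, and for HOXD8, which rose with hairpin 3. Each run is the 250 bases before the start in RefSeq (GRCh38.p14), 5′ to 3′ on the gene's strand, with 4 motifs in capitals wherever they match on either strand: TATAAA as the TATA box, CCAAT as the CCAAT box, CACGTG as an E-box, and TGATTNAT as a composite site for PBX and HOX proteins. HOXA7 lies at chr7:27156676-27156925 on the minus strand, HOXD13 at chr2:176092471-176092720 on the plus strand, HOXD10 at chr2:176116528-176116777 on the plus strand and HOXD8 at chr2:176129455-176129704 on the plus strand.
HOXA7: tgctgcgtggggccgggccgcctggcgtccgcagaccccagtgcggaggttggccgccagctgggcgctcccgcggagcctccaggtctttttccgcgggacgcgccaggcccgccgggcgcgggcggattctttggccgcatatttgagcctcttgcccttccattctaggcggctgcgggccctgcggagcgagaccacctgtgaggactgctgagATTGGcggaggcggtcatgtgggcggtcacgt
HOXD13: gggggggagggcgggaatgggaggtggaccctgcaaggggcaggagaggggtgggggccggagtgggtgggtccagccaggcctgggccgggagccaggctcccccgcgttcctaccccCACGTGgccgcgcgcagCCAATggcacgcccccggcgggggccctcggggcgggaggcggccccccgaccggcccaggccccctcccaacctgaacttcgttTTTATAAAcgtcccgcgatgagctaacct
HOXD10: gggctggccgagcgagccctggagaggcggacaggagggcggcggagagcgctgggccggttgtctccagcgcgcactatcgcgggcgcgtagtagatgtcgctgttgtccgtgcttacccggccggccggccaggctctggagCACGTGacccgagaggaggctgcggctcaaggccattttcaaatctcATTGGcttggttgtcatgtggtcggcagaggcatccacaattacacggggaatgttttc
HOXD8: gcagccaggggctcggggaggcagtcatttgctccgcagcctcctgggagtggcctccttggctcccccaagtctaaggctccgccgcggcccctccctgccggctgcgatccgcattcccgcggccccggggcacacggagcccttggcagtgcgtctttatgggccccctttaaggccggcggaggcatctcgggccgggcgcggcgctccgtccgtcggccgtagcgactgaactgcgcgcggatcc

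HOXD13 holds TATAAA with the nearest match 27 bases before the start, where its reverse complement overlaps it, and also CCAAT and CACGTG. HOXD10 holds CCAAT and CACGTG but no TATAAA, HOXA7 holds CCAAT, and HOXD8 holds none of the 4. RefSeq promoters were at hand for 19 members, with 26 starts in all. TATAAA was present in 5 of these 26 and in 10.7% of all 35116 promoters of the table, CCAAT in 17 and 32.0%, CACGTG in 8 and 6.34%, and TGATTNAT in 2 and 2.48%. The 250 bases held 28 CG dinucleotides in HOXA7, 21 in HOXD13, 23 in HOXD10 and 28 in HOXD8, against a median of 11 over all promoters and 19.5 over those of HOX genes. A match of letters is a description of this window and shows no binding.

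In the HOXA cluster (chromosome 7, minus strand, GRCh38), HOXA2 was lower in A-498 and several of the middle and posterior genes higher. Values are given in the order control, hairpin 1 and hairpin 3 for each line. HOXA2 stood at 13.8, 11.6 and 13.1 CPM in 786-O and 6.45, 6.28 and 5.53 CPM in A-498, a log2 difference of -1.08 ± 0.168 (SE), edgeR adjusted p 0.00273. HOXA2 patterns the hyoid arch, and all 3 libraries of 786-O lay above all 3 of A-498. HOXA3 was at 80.9, 66.7 and 64.5 CPM in 786-O and 60.4, 51.8 and 54.6 CPM in A-498, with a difference of -0.34 and adjusted p 0.0618 in edgeR. HOXA3, a gene of the pharyngeal organs, thus missed the threshold, although the lines did not overlap, and passed it with the replicate block (adjusted p 0.0180).

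HOXA4 stood at 2.93, 2.99 and 3.54 CPM in 786-O and 2.23, 4.38 and 3.77 CPM in A-498, and the lines overlapped. HOXA5 stood at 18.4, 21.3 and 11.7 CPM in 786-O and 33, 36.4 and 38 CPM in A-498, a log2 difference of 1.06 ± 0.241 (SE), edgeR adjusted p 0.0115. HOXA5, which is needed for the airways, was higher in every library of A-498. HOXA6 stood at 0.822, 0.817 and 0.493 CPM in 786-O and 1.90, 1.59 and 2.65 CPM in A-498, a difference of 1.53 ± 0.340 (SE), edgeR adjusted p 0.0108. HOXA6 thus crossed 1 CPM in A-498 and not in 786-O. For HOXA7 the CPM values were 0.0379, 0.115 and 0.0666 CPM in 786-O and 5.03, 3.26 and 6.52 CPM in A-498, with no overlap. HOXA5, HOXA6 and HOXA7 lie side by side in the cluster, and the calls of HOXA5 and HOXA6 were kept in each of the 11 alternative settings.

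HOXA9 stood at 74.9, 58 and 47.6 CPM in 786-O and 64.1, 52.6 and 45.3 CPM in A-498, and the ranges of the lines overlapped. HOXA10 stood at 34.5, 28.3 and 35.1 CPM in 786-O and 63, 32.3 and 55.3 CPM in A-498, a log2 difference of 0.60 (edgeR adjusted p 0.0765). HOXA10, a gene of the uterus and the hindlimb, passed with the replicate block (0.0118) and without hairpin 1 of A-498 (0.00876), the library of A-498 that overlapped 786-O. HOXA11 stood at 5.0, 4.54 and 7.60 CPM in 786-O and 41.7, 24.8 and 30.4 CPM in A-498, a difference of 2.48 ± 0.289 (SE), edgeR adjusted p 8.8e-04. HOXA11, 1 of the group 11 kidney genes, was higher in every A-498 library and was called in all 11 alternatives. HOXA13 stood at 2.05, 1.60 and 1.85 CPM in 786-O and 1.90, 1.10 and 0.838 CPM in A-498, a difference of -0.59 that missed the threshold in edgeR (adjusted p 0.124). HOXA13, the gene of the digits and the genital tubercle, did not share the pattern of HOXC13 and HOXD13.

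**Figure D3:**
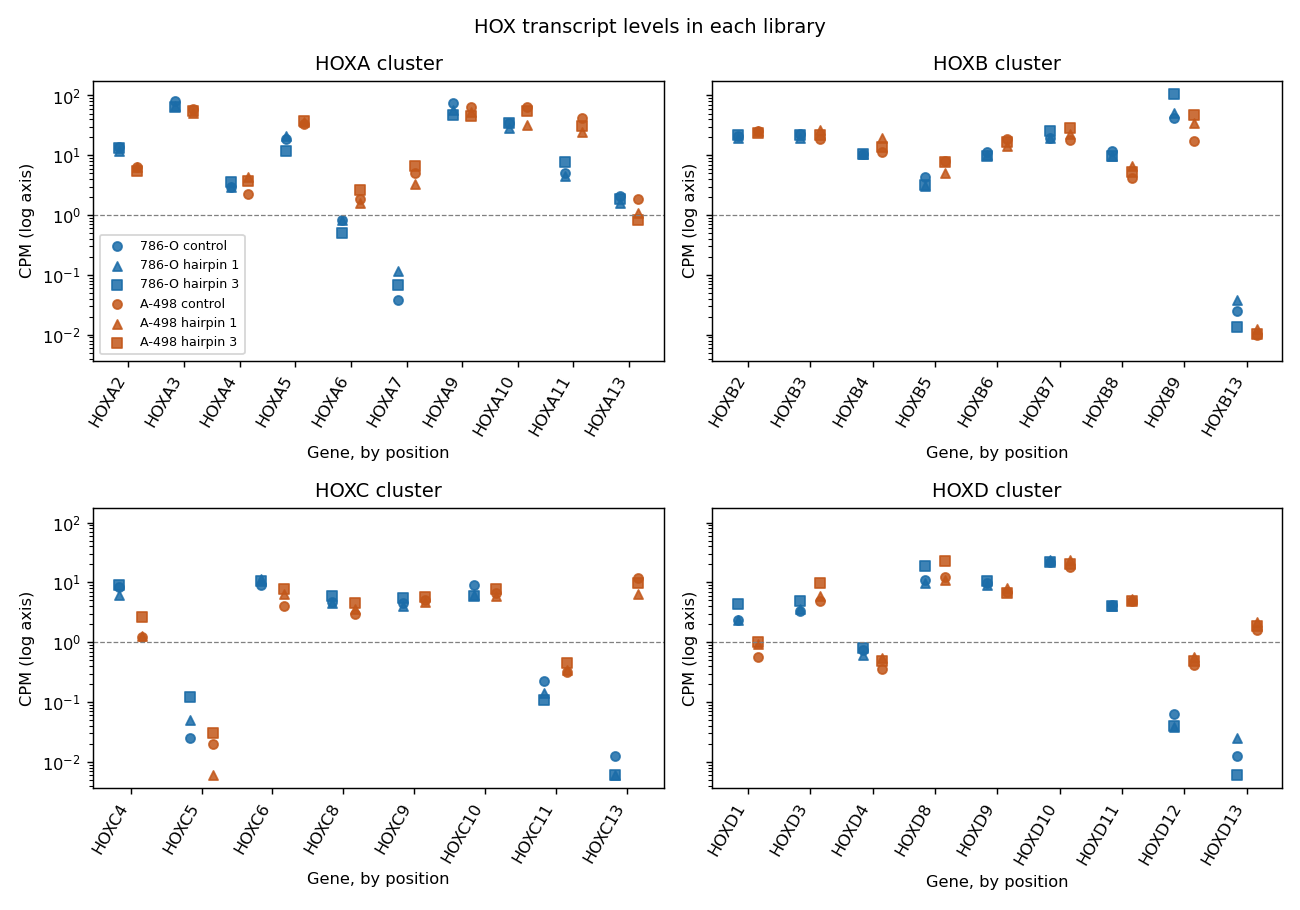
CPM of 36 HOX genes in each of the 6 libraries on a log axis, with a panel for each cluster, genes by position, 786-O in blue, A-498 in orange and a symbol for each construct, and with 0 counts drawn at 0.006 CPM. The dashed line marks 1 CPM, and HOXA7, HOXC13 and HOXD13 sit below it in 786-O and above it in A-498.

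The HOXB cluster (chr17:48540894-48729178, minus strand) had no difference of 4-fold or more, and 4 of its 8 tested genes were called, HOXB5, HOXB6, HOXB8 and HOXB9. HOXB2 stood at 20.8, 19.3 and 22.1 CPM in 786-O and 25.7, 25.1 and 23.8 CPM in A-498. HOXB3 stood at 22.8, 19.4 and 21.8 CPM in 786-O and 18.6, 26.9 and 22.1 CPM in A-498. The lines overlapped for HOXB3 but not for HOXB2, both genes of the hindbrain, and neither was called. HOXB4 stood at 10.4, 10.7 and 10.7 CPM in 786-O and 11.4, 19.6 and 13.7 CPM in A-498, a log2 difference of 0.48 (edgeR adjusted p 0.104), and HOXB4, known for expanding blood stem cells, passed with the replicate block (0.0492). HOXB5 stood at 4.29, 3.08 and 3.16 CPM in 786-O and 7.90, 5.06 and 7.65 CPM in A-498, a difference of 0.98 ± 0.226 (SE), edgeR adjusted p 0.0124. HOXB6 stood at 11.2, 10.0 and 9.62 CPM in 786-O and 19.1, 14.6 and 16.8 CPM in A-498, a difference of 0.70 ± 0.153 (SE), edgeR adjusted p 0.00987. These 2 neighbours were higher in A-498, with no overlap between the lines. Both calls were lost without the control of 786-O (adjusted p 0.0707 for HOXB5 and 0.0932 for HOXB6) and without that of A-498 (0.0743 and 0.0993).

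HOXB7 stood at 19.2, 19.3 and 25.4 CPM in 786-O and 17.9, 22.5 and 29.1 CPM in A-498, with overlapping lines, and HOXB7 is a trunk gene often raised in tumours. HOXB8 stood at 11.9, 9.80 and 9.81 CPM in 786-O and 4.14, 6.57 and 5.23 CPM in A-498, a log2 difference of -1.0 ± 0.233 (SE), edgeR adjusted p 0.0130. HOXB9 stood at 42.8, 50.3 and 107 CPM in 786-O and 17.4, 35.1 and 46.5 CPM in A-498, a difference of -1.06 ± 0.296 (SE), edgeR adjusted p 0.0246. HOXB8, a gene of myeloid progenitors, and HOXB9, a posterior trunk gene, were lower in A-498. The lines did not overlap for HOXB8 but did for HOXB9, whose level moved with the construct in both lines. HOXB8 lost its call without the control of 786-O (adjusted p 0.111) or of A-498 (0.0999). HOXB9 lost it without either control (0.125 and 0.120), without hairpin 3 of 786-O (0.0917) and without hairpin 1 of A-498 (0.0555).

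The HOXC cluster (chr12:53938765-54056030, plus strand) had HOXC4 and HOXC6 lower in A-498, and HOXC13 near 0 in 786-O. HOXC4 stood at 8.41, 6.15 and 9.22 CPM in 786-O and 1.20, 1.27 and 2.63 CPM in A-498, a log2 difference of -2.25 ± 0.370 (SE), edgeR adjusted p 0.00340. HOXC6 stood at 9.16, 11.3 and 10.6 CPM in 786-O and 3.99, 6.47 and 7.73 CPM in A-498, a difference of -0.81 ± 0.203 (SE), edgeR adjusted p 0.0164. HOXC4 and HOXC6, which share exons, were both higher in every 786-O library, but HOXC6 lost its call without the control of 786-O (adjusted p 0.152) or of A-498 (0.142). HOXC8 stood at 4.64, 4.49 and 6.0 CPM in 786-O and 3.01, 3.55 and 4.53 CPM in A-498, a difference of -0.46 that passed in 1 of the 11 alternatives, the replicate block (edgeR adjusted p 0.138, with the block 0.0403). HOXC9 stood at 4.57, 4.07 and 5.50 CPM in 786-O and 5.06, 4.74 and 5.66 CPM in A-498. HOXC10 stood at 9.23, 6.20 and 5.85 CPM in 786-O and 6.57, 5.97 and 7.75 CPM in A-498. For HOXC8, a trunk gene, and for HOXC9 and HOXC10, genes of the lower thoracic and lumbar levels, the ranges of the lines overlapped.

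HOXC11 stayed under 1 CPM, at 0.228, 0.140 and 0.107 CPM in 786-O and 0.321, 0.350 and 0.450 CPM in A-498, with a log2 difference of 1.26 ± 0.394 (SE), edgeR adjusted p 0.0372. The call held in only 4 of the 11 alternatives. It was lost in DESeq2 (adjusted p 0.0509) and when any library was left out: 0.0542, 0.114 and 0.115 without the control, hairpin 1 and hairpin 3 of 786-O, and 0.0559, 0.0621 and 0.0940 without those of A-498. HOXC13, beyond it, was at 11.7, 6.34 and 9.75 CPM in A-498, a level per kilobase (3.82 ± 1.12 CPM per kb) close to those of HOXC9 (3.40 ± 0.307) and HOXC10 (3.49 ± 0.470) in the same libraries.

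In the HOXD cluster (chr2:176092891-176190907, plus strand) the gene order on the chromosome starts at HOXD13. HOXD1 stood at 2.37, 2.40 and 4.34 CPM in 786-O and 0.562, 0.924 and 1.0 CPM in A-498, a log2 difference of -1.89 ± 0.302 (SE), edgeR adjusted p 0.00298. HOXD1, the most anterior gene of the cluster, was lower in every library of A-498, with the overlap of its exons given above as a limit. HOXD3 stood at 3.38, 3.57 and 4.96 CPM in 786-O and 4.87, 5.98 and 9.78 CPM in A-498, a difference of 0.77 (edgeR adjusted p 0.0539), and HOXD3 passed with the replicate block (0.00603), in DESeq2 (0.0207) and without hairpin 1 of A-498 (0.0347). HOXD4 ranged from 0.361 to 0.813 CPM over all 6 libraries. HOXD8 stood at 11.1, 9.89 and 19.1 CPM in 786-O and 12.4, 11 and 23.3 CPM in A-498, and the lines overlapped, with the hairpin 3 library highest in each. HOXD9 stood at 9.92, 8.92 and 10.5 CPM in 786-O and 6.89, 8.06 and 6.78 CPM in A-498, a difference of -0.43 (edgeR adjusted p 0.0885, with the block 0.0429), with no overlap.

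HOXD10 stood at 21.6, 23.6 and 21.6 CPM in 786-O and 17.8, 23.8 and 20.4 CPM in A-498. HOXD11 stood at 4.27, 4.0 and 4.0 CPM in 786-O and 4.87, 5.33 and 4.87 CPM in A-498. HOXD10, a limb and lumbar gene, overlapped between the lines, and HOXD11, the group 11 partner of HOXA11 in the kidney, differed by only 0.30 on the log2 scale (edgeR adjusted p 0.231). The higher group 11 sum of A-498 thus came from HOXA11, since HOXC11 stayed under 1 CPM. HOXD13, at the end of the cluster, was at 1.62, 2.20 and 1.84 CPM in A-498.

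Counts of calls along the clusters stand beside the 25.7% of all genes called higher and the 21.4% called lower in A-498. Of the 7 members at positions 1 to 3, 3 were lower in A-498 and 0 higher, with a median log2 difference of -0.34. Among the 14 tested members at positions 4 to 8, 5 were higher in A-498, HOXA7 among them, and 3 lower, with a median of 0.16. At positions 9 to 13, 5 of 14 tested were higher in A-498 and 1, HOXB9, lower, with a median of 0.21. Of these 5, HOXC13, HOXD12 and HOXD13 passed the filter only through A-498, and HOXC11 held its call in 4 of the 11 alternatives, so the counts are no sign of a difference between positions. Position and difference gave Spearman's rho of 0.96 over 7 genes in HOXC, 0.70 over 9 in HOXD, 0.46 over 11 in HOXA, -0.48 over 8 in HOXB and 0.40 over all 35. The value of HOXB had the opposite sign to those of the other 3 clusters. The rho values include HOXA7, HOXC13, HOXD12 and HOXD13, which passed the filter only through A-498, so these values too are no sign of a difference between positions. They are descriptions of genes in shared libraries, without a test.

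Of 20 noncoding and antisense genes inside the clusters, 19 were tested, and 6 were higher and 1 lower in A-498, beside 25.7% and 21.4% of all genes, with a median log2 difference of 0.40 against 0.02 over all genes. The counts and the median include genes, named below, that passed the filter only through A-498, so neither is support. HOXA11-AS stood at 2.12, 2.23 and 1.63 CPM in 786-O and 9.13, 5.67 and 6.99 CPM in A-498, a difference of 1.84 ± 0.238 (SE), edgeR adjusted p 0.00130, beside HOXA11, whose exons it overlaps. HOXA-AS3 stood at 1.32, 1.17 and 0.626 CPM in 786-O and 3.68, 3.02 and 2.57 CPM in A-498, a difference of 1.58 ± 0.299 (SE), edgeR adjusted p 0.00577, beside HOXA5, HOXA6 and HOXA7. HOXB-AS3 stood at 4.64, 3.83 and 3.57 CPM in 786-O and 9.48, 6.84 and 7.81 CPM in A-498, a difference of 1.0 ± 0.181 (SE), edgeR adjusted p 0.00484, beside HOXB5 and HOXB6. In each of these 3 the libraries of A-498 lay above those of 786-O, as for the coding genes named beside them. The exons of all 3 overlap those of coding genes, for HOXB-AS3 over 16.3% of the exonic bases of HOXB6 and 3.58% of those of HOXB5, so if strand was not used their reads cannot be told apart.

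HOTAIR, the antisense RNA between HOXC11 and HOXC12, had 5, 10 and 5 counts in 786-O and 53, 35 and 65 counts in A-498, a ratio of A-498 to 786-O of 6.40 (95% counting interval 4.0 to 10.8). HOXC-AS5, beside HOXC13, had 0, 0 and 0 counts in 786-O and 25, 10 and 13 counts in A-498. HOXC-AS3 had 6, 6 and 4 counts in 786-O and 29, 32 and 27 counts in A-498. All 3 are among the 6 called higher in A-498, but they passed the filter on low counts only through A-498, where they are high. They had to differ once they passed, so their calls are no support and no p is given. HOTTIP had 7, 3 and 0 counts in 786-O and 13, 10 and 3 counts in A-498, and MIR10A 7, 8 and 4 against 10, 27 and 19. Both also passed the filter only through A-498 and were not called. The median of the list includes all of these genes, so it is no sign of a difference between the lines. HOXD-AS1 stood at 27.7, 28.2 and 31.5 CPM in 786-O and 17.5, 21.4 and 20.0 CPM in A-498, a log2 difference of -0.57 ± 0.139 (SE), edgeR adjusted p 0.0149, the only noncoding gene called lower in A-498. HOTAIRM1 stood at 21.9, 24.9 and 17.5 CPM in 786-O and 17.9, 16.6 and 17.4 CPM in A-498. HOXA-AS2 stood at 26.8, 21 and 16.6 CPM in 786-O and 34.9, 24.7 and 26.2 CPM in A-498. These 2 genes of the HOXA cluster were abundant in every library and were not called between the lines, with differences of -0.31 and 0.42. HOXA-AS4, HOXB-AS4, HOXC-AS2 and HOXD-AS2 also passed 1 CPM, lay between 1.39 and 5.56 CPM and were not called.

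Of 13 tested neighbours of the clusters, 6 were higher and 3 lower in A-498, beside 25.7% and 21.4% of all genes. EVX2, the homeobox gene beyond HOXD13, had 0, 0 and 1 counts in 786-O and 57, 28 and 58 counts in A-498, a ratio of 120 (21.1 to 4760, with 1 count in 786-O), and so was near 0 in 786-O as HOXD12 and HOXD13 were. TTLL6, beyond the posterior end of HOXB, was at 1.51, 1.43 and 0.760 CPM in 786-O and 9.85, 6.37 and 4.64 CPM in A-498, a log2 difference of 2.46 ± 0.314 (SE), edgeR adjusted p 0.00126. SKAP1, beyond the anterior end of HOXB, went the other way, at 11.9, 13.4 and 11.6 CPM in 786-O and 0.211, 0.624 and 0.163 CPM in A-498, with a difference of -5.26 ± 0.512 (SE), edgeR adjusted p 4.3e-04. CALCOCO1 stood at 25.5, 24 and 13 CPM in 786-O and 39, 37.8 and 35.1 CPM in A-498, a difference of 0.86 ± 0.247 (SE), edgeR adjusted p 0.0277, and CALCOCO1 lies beyond the HOXC13 end of the HOXC cluster. For each of these 4 neighbours the lines did not overlap. EVX2 passed the filter on low counts only through A-498, where it is high, so its call among the 6 is no support. The median over the 13, EVX2 included, was 0.35.

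The cofactors that HOX proteins bind with differed by member. Of 8 tested, 2 were higher and 1 lower in A-498 (25.7% and 21.4% of all genes), with a median log2 difference of 0.24. MEIS3 stood at 0.329, 0.306 and 0.147 CPM in 786-O and 17.2, 22.6 and 20.7 CPM in A-498, a difference of 6.26 ± 0.350 (SE), edgeR adjusted p 6.0e-05. PBX3 stood at 89.5, 79.9 and 129 CPM in 786-O and 21, 17.7 and 24.3 CPM in A-498, a difference of -2.24 ± 0.236 (SE), edgeR adjusted p 5.8e-04. MEIS3 was thus low in 786-O and abundant in A-498, PBX3 was high in 786-O, and the lines did not overlap in either gene. MEIS1, MEIS2 and PBX2 were not called.

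Genes of retinoic acid, the vitamin A product that switches on HOX genes in embryos, were mostly higher in A-498. Of 17 in the table, 14 were tested, and 11 were higher and 1, RXRB, lower (25.7% and 21.4% of all genes), with a median log2 difference of 2.93. CYP26A1, among the 11, had 1, 0 and 2 counts in 786-O and 14, 22 and 8 counts in A-498. It passed the filter on low counts only through A-498, so its call and its part in the median are no support. CYP26B1 stood at 1.24, 0.357 and 0.227 CPM in 786-O and 98.6, 93.5 and 86.4 CPM in A-498, a difference of 7.50 ± 0.492 (SE), edgeR adjusted p 9.5e-05. RARB stood at 0.417, 0.268 and 0.187 CPM in 786-O and 37, 32.3 and 39.8 CPM in A-498, a difference of 6.99 ± 0.292 (SE), edgeR adjusted p 3.2e-05. CYP26B1 breaks retinoic acid down and RARB is a receptor for it. STRA6 stood at 0.670, 0.485 and 0.320 CPM in 786-O and 20.9, 30.1 and 12.4 CPM in A-498, a difference of 5.45 ± 0.452 (SE), edgeR adjusted p 2.3e-04. CRABP2 stood at 4.0, 2.45 and 2.59 CPM in 786-O and 33.4, 60.1 and 26 CPM in A-498, a difference of 3.75 ± 0.398 (SE), edgeR adjusted p 5.9e-04. STRA6 takes up vitamin A and CRABP2 carries retinoic acid, and all 3 libraries of A-498 lay above all 3 of 786-O for the 4 genes. Whether these genes bear on the HOX levels was not tested.

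Polycomb repressors, which keep HOX genes silent, were called in both directions: 6 of 22 higher and 7 lower in A-498, beside 25.7% and 21.4% of all genes, with a median log2 difference of -0.23. BMI1 stood at 47.6, 43.2 and 55.3 CPM in 786-O and 13.2, 9.65 and 14.5 CPM in A-498, a difference of -1.97 ± 0.209 (SE), edgeR adjusted p 6.0e-04. CBX2 stood at 10.1, 5.68 and 6.92 CPM in 786-O and 35.7, 21.5 and 19.2 CPM in A-498, a difference of 1.74 ± 0.163 (SE), edgeR adjusted p 3.7e-04. Both belong to the complex that compacts chromatin, and they moved in opposite directions. JARID2, a partner of the complex that methylates histones, differed by -1.16 (edgeR adjusted p 0.00634). Of 13 Trithorax and demethylase genes, which act against Polycomb, 3 were higher and 2 lower (again beside 25.7% and 21.4%), with a median of 0.16. The largest differences there were 1.01 for KDM6B (adjusted p 0.0211) and 0.60 for ASH2L (0.00904).

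Of 13 tested regulators of the early kidney, 7 were higher and 2 lower in A-498, beside 25.7% and 21.4% of all genes, with a median log2 difference of 0.65. SIX2, which marks nephron progenitors, had 0, 0 and 0 counts in 786-O and 157, 150 and 118 counts in A-498. WT1, a regulator of the kidney mesenchyme and podocytes, had 1643, 2169 and 1524 counts in 786-O and 3, 0 and 1 counts in A-498. HNF4A, the proximal tubule factor, had 5, 2 and 0 counts in 786-O and 2591, 1261 and 860 counts in A-498. GATA3, which belongs to the nephric duct, stood at 0.164, 0.115 and 0.0400 CPM in 786-O and 1.93, 2.25 and 2.07 CPM in A-498. None of these 4 genes overlapped between the lines, and WT1 alone among them was the higher in 786-O. SIX2, HNF4A and GATA3 passed the filter on low counts only through A-498, and WT1 only through 786-O. EYA1, with 2, 1 and 1 counts in 786-O and 25, 16 and 19 counts in A-498, also passed only through A-498. So did OSR1, with 27, 6 and 8 counts in 786-O and 295, 198 and 235 counts in A-498. Both are among the 7 called higher. All of these genes had to differ once they passed, so their part in the counts of calls is no support and no p is given. The median of the list includes these genes, so it too is no sign of a difference between the lines.

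**Figure D4:**
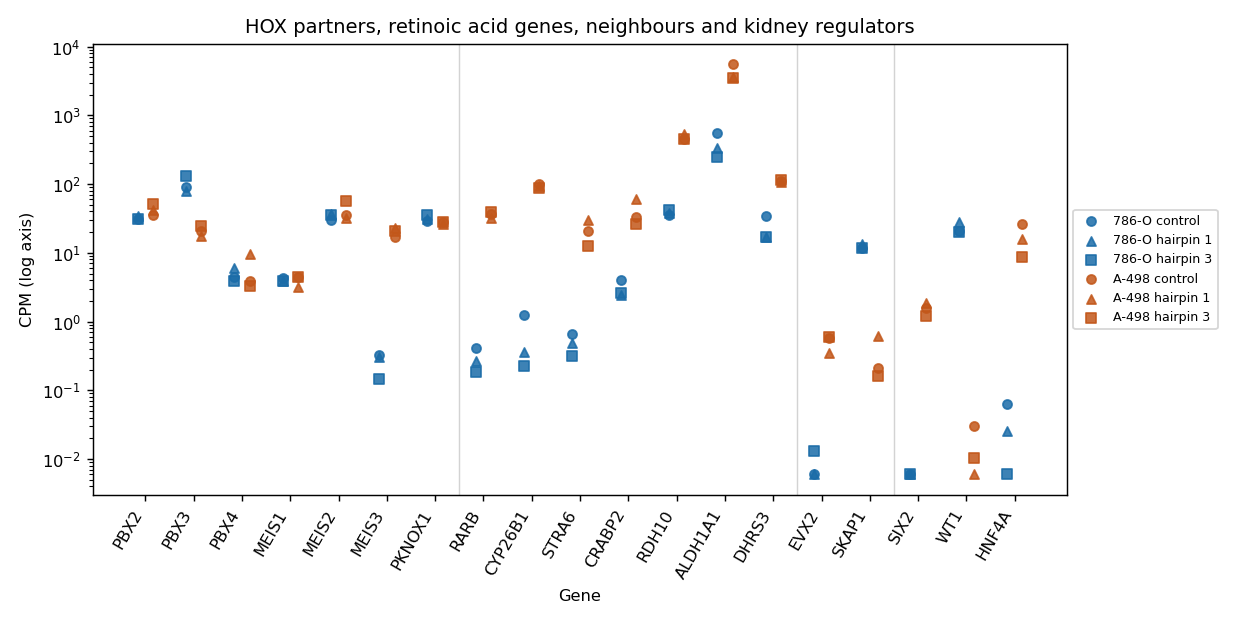
CPM of HOX cofactors, retinoic acid genes, cluster neighbours and kidney regulators in each library on a log axis, with 786-O in blue, A-498 in orange, a symbol for each construct, grey lines between the groups and 0 counts drawn at 0.006 CPM. MEIS3, CYP26B1, RARB, EVX2, SIX2 and HNF4A are higher in A-498 and SKAP1 and WT1 higher in 786-O, with the lines apart.

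Loss of ZNF395 gave no HOX call with the hairpins pooled. By edgeR's quasi-likelihood test, 0 of 35 members passed for knockdown against control, as did 0% of all genes, and 3 members and 1013 genes had an unadjusted p under 0.05. The smallest p belonged to HOXB9 (log2 difference 1.05, adjusted p 0.939), HOXA9 (-0.45, 0.939) and HOXC6 (0.53, 0.939). DESeq2 called 92 genes, limma-voom 1 and the replicate block 26, with 0 HOX members in each. The authors' deposited table, which sets control over knockdown, gives HOXB9 a log2 fold change of -0.75 with adjusted p 0.240 and HOXA9 one of 0.40 with adjusted p 0.650.

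With hairpin 1 alone, 0 of 35 members were called by edgeR against 0.149% of all genes, and 5 members had an unadjusted p under 0.05. DESeq2 and limma-voom likewise called 0 members. HOXA10 had the smallest p, with a log2 difference of -0.62 (edgeR adjusted p 0.295), followed by HOXB9 at 0.63 (0.339) and HOXC13 at -0.92 (0.382). HOXA10 differed from the control of its line by -0.29 on the log2 scale in 786-O and by -0.96 in A-498. HOXC13 is a value of A-498 alone, since 786-O had 1 count.

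With hairpin 3, HOXB9 and HOXD8 rose and HOXA9 fell in both lines. With the control, hairpin 1 and hairpin 3, HOXB9 had 42.8, 50.3 and 107 CPM in 786-O and 17.4, 35.1 and 46.5 CPM in A-498. HOXD8 had 11.1, 9.89 and 19.1 CPM in 786-O and 12.4, 11 and 23.3 CPM in A-498. HOXA9 had 74.9, 58 and 47.6 CPM in 786-O and 64.1, 52.6 and 45.3 CPM in A-498. The hairpin 3 library was thus the highest of its line for HOXB9 and HOXD8 and the lowest for HOXA9 in both lines. Hairpin 1 and hairpin 3 share the control library of a line, so their differences from it are not independent. The log2 difference of HOXB9 from the control was 1.36 ± 0.201 (SE), edgeR adjusted p 0.0175, over 2 lines. That of HOXD8 was 0.85 ± 0.145 (SE), edgeR adjusted p 0.0247, and that of HOXA9 was -0.58 ± 0.117 (SE), edgeR adjusted p 0.0361.

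These 3 calls of 35 made 8.57%, against 6.71% of all genes called with hairpin 3. The 2 that rose made 5.71% against 2.55%, and the 1 that fell 2.86% against 4.16%. HOXD3 (0.78, edgeR adjusted p 0.0641) and HOXB7 (0.55, 0.0740) came next and missed the threshold, and both passed in DESeq2. The calls depended on single libraries. HOXA9 was lost without the control of 786-O (adjusted p 0.348), its hairpin 1 (0.0642) or its hairpin 3 (0.0620), and without the control of A-498 (0.211). HOXD8 was lost without the control of 786-O (0.184) or of A-498 (0.279), and HOXB9 without the control of A-498 (0.0871). Without hairpin 3 of 786-O or of A-498, hairpin 3 is left with 1 library, so the members called against the control in those fits are not counted here. The loss of HOXA9 without hairpin 3 of 786-O comes from such a fit and is given only as a limit.

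**Figure D5:**
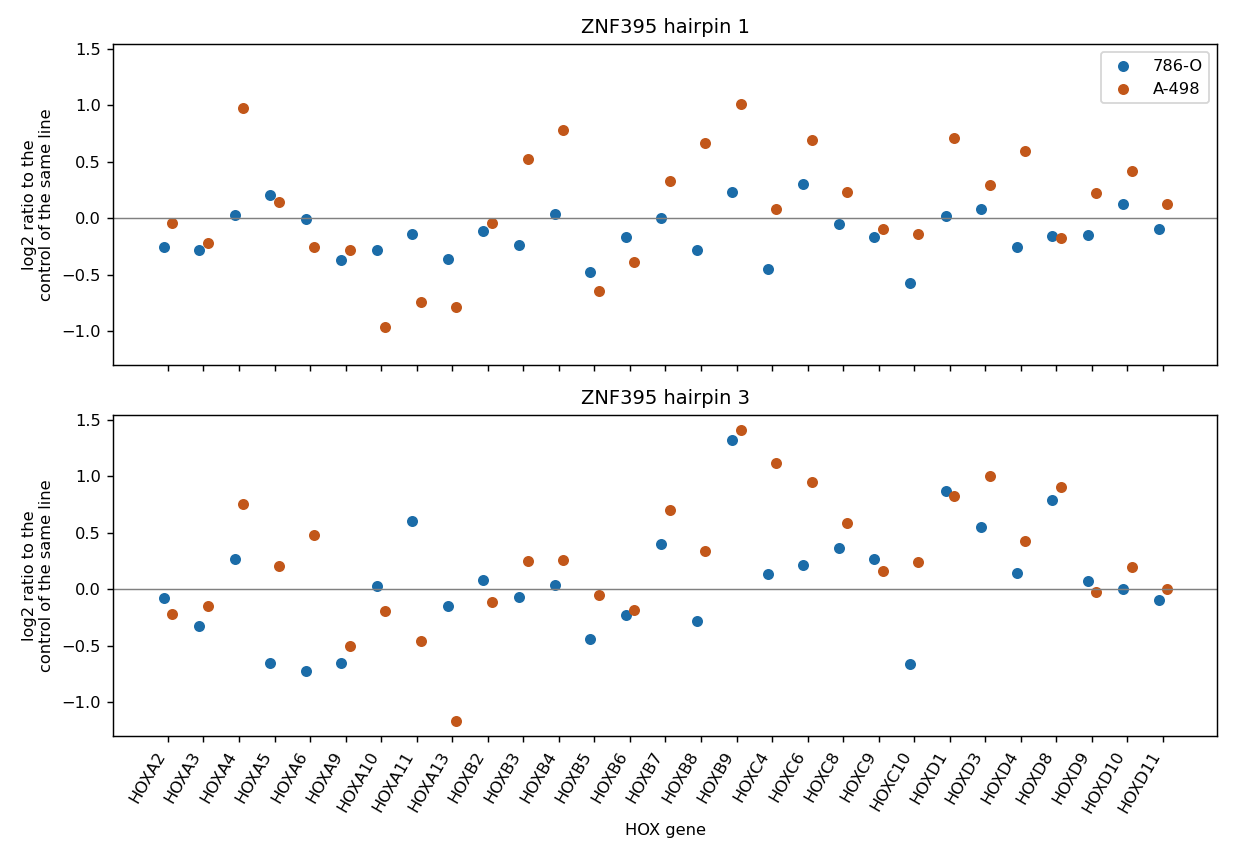
Log2 ratio of each knockdown library to the control of its own line for 29 HOX genes with at least 0.3 CPM in every library, hairpin 1 above and hairpin 3 below, 786-O in blue and A-498 in orange. With hairpin 3 HOXB9 lies at 1.32 in 786-O and 1.41 in A-498, HOXD8 at 0.79 and 0.90, and HOXA9 at -0.65 and -0.50.

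The hairpins differed from each other at HOXD8. Hairpin 3 against hairpin 1 gave HOXD8 a log2 difference of 1.01 ± 0.146 (SE), edgeR adjusted p 0.0141, 1 of 35 members or 2.86%, where 9.48% of all genes were called. HOXD8 lay below the control with hairpin 1, by ratios of -0.16 and -0.17 on the log2 scale, and above it with hairpin 3. The call was lost without hairpin 1 of 786-O (adjusted p 0.0771) and without hairpin 1 of A-498 (0.0582). HOXB9 had a difference of 0.73 between the hairpins (edgeR adjusted p 0.0668) and passed in DESeq2. Without hairpin 3 of 786-O or of A-498, hairpin 3 is left with 1 library, so the members called between the hairpins in those fits are not counted here.

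Whether the knockdown moved HOX genes differently in the lines was tested as an interaction. By edgeR's test 0 of 35 members passed, as did 0% of all genes, and 0 members and 159 genes had an unadjusted p under 0.05. DESeq2 and limma-voom also called 0 members. The smallest p belonged to HOXB8, with a knockdown effect of 0.79 in A-498 minus 786-O on the log2 scale, HOXA11 (-0.87) and HOXC13 (2.72), each with an edgeR adjusted p of 1.00. HOXB8 lay at log2 ratios of -0.28 and -0.28 to the control with hairpin 1 and hairpin 3 in 786-O, and at 0.66 and 0.34 in A-498. The value of HOXC13 rests on the 1 count of the 786-O control.

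Around the HOX genes, hairpin 3 changed few members of the lists above. None of the 8 cofactors and none of the 19 tested noncoding genes of the clusters was called by edgeR. The Polycomb genes CBX6 (0.67, edgeR adjusted p 0.0305) and PHC2 (0.75, 0.0197) and the activators KMT2C (0.62, 0.0385) and DOT1L (0.76, 0.0225) rose. ALDH1A1, which makes retinoic acid, fell (-0.90, 0.0291), as did HNF4A (-1.65, 0.0296) and TTLL6 (-1.04, 0.0450). HNF4A had only 5, 2 and 0 counts in 786-O, so its fall rests on A-498 alone and is not shown in both lines. KIAA1715, a neighbour of the HOXD cluster, rose by 0.72 on the log2 scale (adjusted p 0.0294). At 2 of 22, 2 of 13, 1 of 14, 1 of 13 and 2 of 13, these counts stand beside the 6.71% of all genes called with hairpin 3. With hairpin 1 and with the hairpins pooled, 0 members of these lists were called.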

How the data were processed

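RNA was measured in 6 libraries of 786-O and A-498, 1 for each line and construct. The authors deposited raw read counts for 32357 gene symbols in 1 table. The submitters' processing notes name the aligner STAR, the package DESeq2 and the builds hg19 and hs37d5. What counted the reads, on which annotation and with or without strand, the sources used here do not say. Per the file headers, the deposited table also holds a mean signal per gene (baseMean), a log2 fold change and its SE, a Wald score (stat) and p-values before and after adjustment. Only values named as the authors' come from these.

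The test was that of edgeR 4.0.16, run in R 4.3.3 (TMM scaling, quasi-likelihood F tests, Benjamini-Hochberg adjustment, call at an adjusted p under 0.05) over the 20144 genes that passed edgeR's expression filter, and SEs were derived from F. The lines, and knockdown against control, were compared in a fit of line plus knockdown status (3 residual degrees of freedom), the hairpins in a fit of line plus construct (2), and the interaction in a fit of 4 means (2). CPM values are TMM-scaled. CPM per kb used the longest GENCODE v29 transcript with a RefSeq match. Library totals ran from 77534125 to 99147218 counts. Intervals on ratios are 95% exact counting intervals. The tests were tested on simulated data.

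The hairpin numbers shared by the lines mark the same reagent. The difference of hairpin 3 minus hairpin 1 correlated between the lines over 11027 genes with r 0.577, and the control, hairpin 1 and hairpin 3 deviations with r 0.578, 0.530 and 0.610. The hairpin number was therefore also fitted as a replicate block. Alternatives were DESeq2's size factors, no filter, DESeq2 1.42.0, limma-voom (limma 3.58.1), the block and leaving out each library. The members and lists were chosen with earlier results of these data known. Values per library are given for HOX genes at 1 CPM or more in a library. Some genes are counted in totals and lists but are not reported here by name or drawn. Of other lists, at most 4 members called between the lines are named by size, with the noncoding genes of the clusters at 1 CPM. Further members are named where they passed the filter only through A-498. For the knockdown, the HOX genes called, or else the 3 with the smallest p, are named.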

Additional observations from a re-analysis of the deposited data

How the results depend on the processing

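Over the 11 alternatives, 10 HOX members were called between the lines in every one: HOXA2, HOXA5, HOXA6, HOXA7, HOXA11, HOXC4, HOXC13, HOXD1, HOXD12 and HOXD13. Of these, HOXA7, HOXC13, HOXD12 and HOXD13 passed the filter only through A-498, where they are high, so their calls are no sign of stability. With each library left out in turn, 3 to 6 members were higher in 786-O and 7 to 11 higher in A-498. Over all genes, 5581 to 8587 were then called, against 9501 with all 6 libraries. The calls of genes in general thus fell in each of these fits, whereas the members higher in A-498 rose from 10 to 11 in 1 of them. The replicate block by hairpin number gave 10 and 13, and added HOXA3, HOXA10, HOXB4, HOXC8, HOXD3 and HOXD9. It changed no HOX call for knockdown against control or for the interaction, and equals the model used for the single hairpins. For 5 uncalled members the line difference changed sign when a library was left out. Log2 values ranged from -0.064 to 0.32 for HOXA4, -0.052 to 0.25 for HOXB3, -0.039 to 0.21 for HOXB7, -0.22 to 0.19 for HOXC10 and -0.15 to 0.50 for HOXD8. For hairpin 3 against control, DESeq2 called 5 members, and the calls moved when a library was left out. For hairpin 3 against hairpin 1, no filter gave 3 members and DESeq2 2, and the calls moved when a library was left out. Over all genes, hairpin 3 against control gave 2654 calls with no filter and 2589 in DESeq2, against 1351. Hairpin 3 against hairpin 1 gave 3117 and 2990 against 1910. The cause of these shifts was not tested, beyond the fewer samples of each left-out fit. The interaction was not run without either control, since the line then has no control.

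Each line and construct had 1 library, so no spread between cultures was measured, and each line is 1 culture series. A library left out leaves an arm with 1 sample, which is assumed to vary like the others. Genes at 0 to 3 counts in 786-O, such as HOXC13 and HOXD13, have fitted differences that depend on the prior count. Exons shared between HOX genes and their antisense or same-strand partners limit the counts of the genes named for it. No label gives a batch.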
